A study of Mus musculus with 72 samples.

Results

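Livers of germ-free (GF) and specific pathogen-free (SPF) male mice that lacked the liver clock were compared at zeitgeber time 10 (ZT10, 10 h after lights on), the late rest phase of a nocturnal animal. The members were the 6 libraries labelled L-Bmal1-KO at ZT10 (3 GF and 3 SPF) of 72 libraries in the series. In the L-Bmal1-KO genotype (LKO), Bmal1 fl/fl mice on the C57BL/6 strain also carried Albumin-Cre, so that Bmal1, an essential activator of the circadian clock, was deleted in hepatocytes. The rest of the body kept its clock. WT mice carried Bmal1 fl/fl alone, and their 3 GF and 3 SPF libraries of ZT10 served for contrast, as did the 30 LKO libraries of ZT2, ZT6, ZT14, ZT18 and ZT22. SPF mice were bred with their own microbiota in a vivarium, whereas GF mice were rederived and kept without microbes in flexible film isolators, so microbial status cannot be told apart from housing. Both statuses had a 12:12 light/dark cycle and autoclaved chow at all hours, and the mice entered individual housing at 10 to 14 weeks of age.

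The liver is the first organ to receive portal blood with microbial products and dietary chemicals from the gut. Its hepatocytes sense foreign chemicals and bile acids through nuclear receptors such as PXR (Nr1i2) and CAR (Nr1i3), and clear them in phases: cytochrome P450 enzymes oxidize them, carboxylesterases split their esters, UDP-glucuronosyltransferases and sulfotransferases couple them to polar groups, and transporters export them. Many of these genes also cycle over the day under the clock.

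The 12 libraries of ZT10 held 18383805 to 19979329 counts, a narrow range of depth, and values are given below as CPM, the counts of a gene relative to the library total after TMM scaling. On the leading principal component (70.11% of the variance of the most variable genes) each library lay on the side of its genotype, and on the next (13.37%) on the side of its microbial status. Arntl, the gene that encodes BMAL1, was at 9.45, 8.80 and 7.42 CPM in the GF LKO libraries and at 8.55, 9.57 and 9.16 CPM in the SPF LKO libraries. In WT, where Arntl is near its trough at this time, it was at 0.536, 0.331 and 0.964 CPM in GF and 1.82, 1.40 and 0.627 CPM in SPF. Gene-level counts also include the exons that the deletion leaves, so Arntl checks the label only in part. Npas2, a partner of BMAL1 that is repressed through the clock, separated the genotypes: it was at 20.7, 21.2 and 19 CPM in GF LKO and 14.4, 19.5 and 16.7 CPM in SPF LKO, against 0.107, 0.110 and 0.170 CPM in GF WT and 0.117, 0.0934 and 0 CPM in SPF WT. Among the 30 LKO libraries of other times, Npas2 went against the label in the libraries labelled SPF LKO ZT14 replicate 2 (0.210 CPM of all counts, beside 25.5 and 25.7) and SPF LKO ZT18 replicate 1 (1.79, beside 41.6 and 29.7), and the counts that rest on those times are given with and without them.

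At ZT10, 132 of 13442 genes (0.982%) differed between GF LKO and SPF LKO livers by the edgeR quasi-likelihood test at a Benjamini-Hochberg adjusted p under 0.05. GF livers were higher for 70 genes (0.521%) and lower for 62 (0.461%). In each of the 132 the 3 GF libraries lay wholly above or wholly below the 3 SPF libraries in CPM. Of all tested genes 21.4% showed such a separation. It was read from the same counts as the test, so it is not separate support for a call. The change reached a log2 size of 1 for 69 genes (0.513%). Among genes with a mean log2 CPM over 1 the largest fall was a near loss of the drug-metabolizing P450 Cyp3a11. The largest rise among them was a gain of the estrogen sulfotransferase Sult1e1. The immunoglobulin segment Igkv6-32, at or below 2.90 CPM in each library, rose by a log2 fold change of 5.56. Its call was kept in 1 of 6 fits that left out an LKO library. Of 42 tested genes of xenobiotic metabolism 7 fell, both tested metallothioneins and 2 of 13 Cyp2c genes rose, the iron transporters Slc40a1 and Slc25a37 fell, and 2 of 27 genes of cholesterol synthesis and uptake rose.

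The number of genes called depended on single libraries, while a core did not. With one LKO library left out, edgeR called 161 genes (without GF replicate 1), 48 (without GF replicate 2), 42 (without GF replicate 3), 77 (without SPF replicate 1), 34 (without SPF replicate 2) or 31 genes (without SPF replicate 3). DESeq2 on the same 12 libraries called 417 genes, among them all 132. In each of these 6 reduced fits edgeR called 21 genes of the 132, 14 of them lower in GF and 7 higher. These genes were called in all 18 planned fits at ZT10 with another tool, scaling, filter, block or set of libraries. The 18 leave out the fits added after the data were seen and the threshold of a log2 size of 1. Ces1f (-0.91), Slc40a1 (-0.92) and Serpinb6b (0.93) did not reach that size. The 18 fits include the 6 reduced fits by which the genes were picked, so those 6 are not further support. The 21 genes were singled out after their values were seen and are described below within their groups. The lower ones were Cyp3a11, Cyp3a59, Cyp3a25, Ugt1a9, Ces1d, Ces1f, Ces2a, Akr1c19, Slc40a1, Slc25a37, Igha, Gdap10, Dpy19l3 and Tiam2, and the higher ones Sult1e1, Cav1, Jaml, Susd4, Sorbs3, Srrm4 and Serpinb6b.

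**Figure D1:**
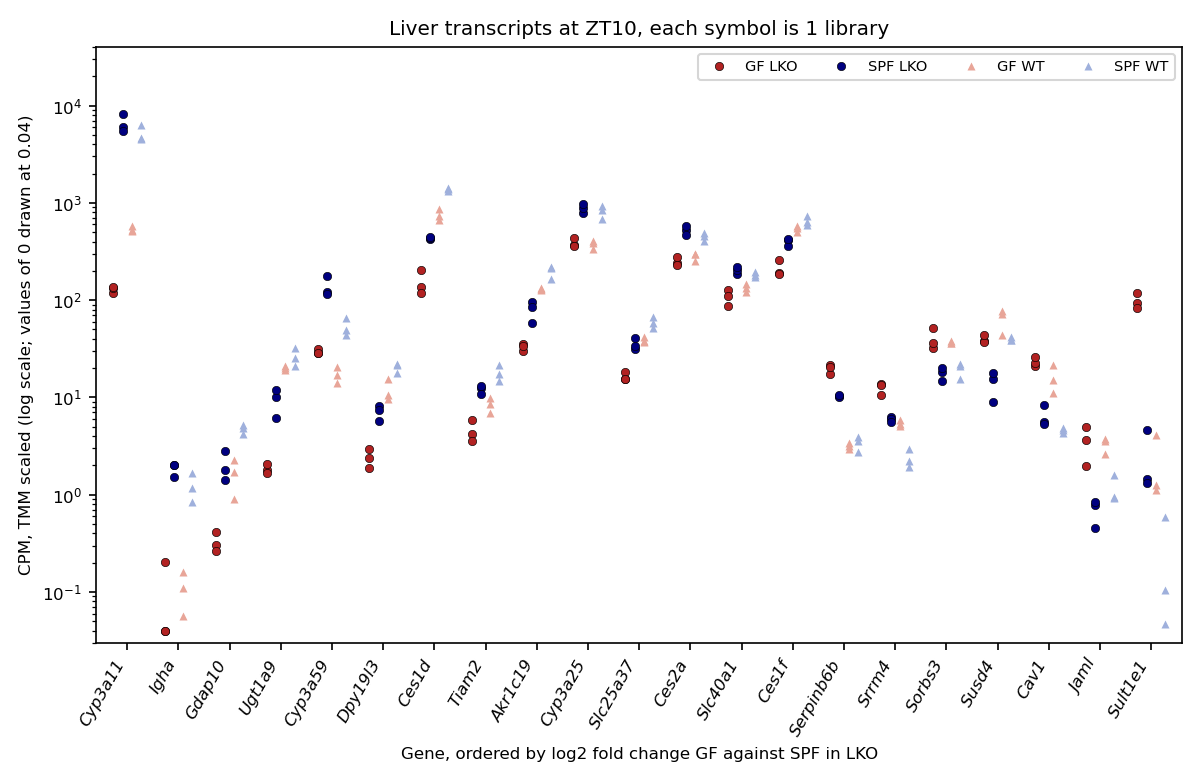
Each symbol is the CPM of 1 library at ZT10 (log axis, with values of 0 drawn at 0.04) for the 21 genes that remained called with any 1 LKO library left out, ordered by fold change. The 3 GF LKO libraries (red circles) lie apart from the 3 SPF LKO libraries (blue circles) in each gene, by the widest gap in Cyp3a11 and Sult1e1, and triangles give the WT libraries.

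Cyp3a11, the mouse counterpart of human CYP3A4, oxidizes many drugs and bile acids and is the textbook target of PXR. It was counted at 119, 133 and 136 CPM in GF LKO livers and at 6036, 5459 and 8109 CPM in SPF LKO livers (log2 fold change -5.66, SE 0.20, edgeR adjusted p = 8.28e-10; 95% interval -6.08 to -5.24). In SPF livers it was among the abundant transcripts, and no GF library came within an order of magnitude of an SPF library. WT livers fell less far, from 6319, 4681 and 4567 CPM in SPF to 519, 524 and 577 CPM in GF (log2 fold change -3.26, edgeR adjusted p = 3.34e-07). GF WT libraries thus kept more Cyp3a11 than GF LKO libraries without overlap, while the SPF libraries of both genotypes overlapped.

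The neighbours of Cyp3a11 in its gene cluster on chromosome 5 moved with it. Cyp3a59 was at 28.5, 31.4 and 28.8 CPM in GF LKO and 121, 116 and 178 CPM in SPF LKO (log2 fold change -2.23, SE 0.19, edgeR adjusted p = 6.53e-05). Cyp3a25 was at 367, 440.4 and 361 CPM in GF LKO and 790.3, 889 and 974 CPM in SPF LKO (log2 fold change -1.18, SE 0.14, edgeR adjusted p = 0.0011). Of the 4 Cyp3a genes with enough counts to test, only Cyp3a13 did not pass (log2 fold change 0.11, edgeR adjusted p = 0.889). Cyp3a genes are near copies of one another and reads that aligned to several places were not counted, so the split of reads between Cyp3a25 and Cyp3a59 is uncertain.

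The promoters of 5 called xenobiotic genes are shown, those of the 7 called that hold the hexamer marked below, so that its place can be seen and the Cyp3a paralogs compared. Those of Cyp2a5 and Gstm1 lack it. Each line gives the 250 bases before the RefSeq start site (GRCm38.p6), 5′ to 3′ on the strand of the gene, with capitals for the hexamer AGGTCA or its complement, a core element that nuclear receptors bind.
Cyp3a11 chr5:145879855-145880104, minus strand: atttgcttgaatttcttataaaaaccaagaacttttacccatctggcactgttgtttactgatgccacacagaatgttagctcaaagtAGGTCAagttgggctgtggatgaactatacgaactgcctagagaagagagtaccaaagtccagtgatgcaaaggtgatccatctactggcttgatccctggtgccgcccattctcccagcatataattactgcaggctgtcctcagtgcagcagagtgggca
Cyp3a25 chr5:146009618-146009867, minus strand: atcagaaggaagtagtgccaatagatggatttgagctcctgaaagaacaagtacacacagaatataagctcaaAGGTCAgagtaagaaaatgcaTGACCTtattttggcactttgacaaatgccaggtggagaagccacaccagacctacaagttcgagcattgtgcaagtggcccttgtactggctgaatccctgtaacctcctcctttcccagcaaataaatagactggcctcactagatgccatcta
Cyp3a59 chr5:146079008-146079257, plus strand: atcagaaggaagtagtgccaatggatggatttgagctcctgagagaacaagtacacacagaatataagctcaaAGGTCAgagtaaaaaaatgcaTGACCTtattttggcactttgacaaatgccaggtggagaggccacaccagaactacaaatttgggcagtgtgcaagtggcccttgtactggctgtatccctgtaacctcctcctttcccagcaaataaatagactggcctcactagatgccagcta
Ugt1a9 chr1:88070529-88070778, plus strand: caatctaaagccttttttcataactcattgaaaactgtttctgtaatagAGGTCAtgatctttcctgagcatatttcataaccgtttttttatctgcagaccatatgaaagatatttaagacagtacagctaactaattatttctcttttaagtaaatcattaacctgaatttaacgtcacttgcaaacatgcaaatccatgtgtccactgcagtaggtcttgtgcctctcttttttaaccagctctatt
Ces2a chr8:104733753-104734002, plus strand: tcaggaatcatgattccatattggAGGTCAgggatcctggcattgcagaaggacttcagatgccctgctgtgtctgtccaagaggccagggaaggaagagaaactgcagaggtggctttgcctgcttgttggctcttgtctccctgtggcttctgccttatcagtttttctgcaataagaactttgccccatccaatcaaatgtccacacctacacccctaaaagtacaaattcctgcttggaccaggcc
Position by position without gaps, the promoters of Cyp3a25 and Cyp3a59 were identical at 239 of 250 bases (95.6%), whereas that of Cyp3a11 matched Cyp3a25 at 71 and Cyp3a59 at 72. Both Cyp3a25 and Cyp3a59 held the hexamer at 2 positions, 177 and 156 bases before the start, and Cyp3a11 held it at 1 position, 162 bases before the start. Searched on both strands, AGGTCA occurred in the promoters of 5 of the 7 called genes of the xenobiotic list. It also occurred in 6 of 32 list genes with a promoter that were tested and not called. Among all 27025 genes with a promoter 15.8% held it, and among all 32851 promoters 14.0%. This hexamer was chosen after the changes were known, and a match of letters is not evidence of binding. The E-box (CACGTG, 6.02% of promoters), the D-box (TTATGTAA, 0.819%) and the interferon-stimulated response element (2.98%) were absent from the windows of the 7 called genes.

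Of 42 tested genes in the list of xenobiotic receptors and their targets, 7 fell and 0 rose in GF LKO livers (0.461% and 0.521% of all genes). The list median log2 fold change was -0.18 beside -0.0015 over all genes. With 1 LKO library left out, edgeR called 5 to 7 members of the list lower and 0 higher, and Cyp3a11, Cyp3a25, Cyp3a59, Ugt1a9 and Ces2a were called in each of the 6 fits. Ugt1a9, which glucuronidates phenols and fatty acids, was at 1.81, 1.69 and 2.05 CPM in GF LKO and 10.2, 11.9 and 6.13 CPM in SPF LKO (log2 fold change -2.34, SE 0.25, edgeR adjusted p = 0.000558). Ugt1a genes share their last exons, and since reads that overlapped several genes were not counted, its value rests on the sequence that is its own. Ces2a, a carboxylesterase, was at 239.97, 229.8 and 275 CPM in GF LKO and 526, 468 and 585 CPM in SPF LKO (log2 fold change -1.08, SE 0.12, edgeR adjusted p = 0.000938). In both genes the highest GF library was below the lowest SPF library.

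The calls of the remaining members were less stable. Cyp2a5, a coumarin hydroxylase, was at 32.4, 31.1 and 33.96 CPM in GF LKO and 77.9, 50.6 and 99.6 CPM in SPF LKO (log2 fold change -1.23, SE 0.21, edgeR adjusted p = 0.015), a call kept in 3 of the 6 fits. Gstm1, a glutathione S-transferase, was at 1125, 1105 and 1327 CPM in GF LKO and 1846, 1600.5 and 1881 CPM in SPF LKO (log2 fold change -0.58, SE 0.12, edgeR adjusted p = 0.0388), and its call was lost when any 1 LKO library was left out. It shares the list of NRF2 and glutathione defence with Ephx1, microsomal epoxide hydrolase (log2 fold change -0.73, edgeR adjusted p = 0.0388), the other gene of its 31 tested members that fell. The list had 2 members lower and 0 higher (0.461% and 0.521% of all genes), 24 of 31 with a negative log2 fold change and a median of -0.27. With 1 LKO library left out 0 or 1 of its genes fell.

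Carboxylesterases, glucuronosyltransferases and aldo-keto reductases were also grouped by family, a choice made after their values were seen. Ces1d, an esterase that also hydrolyses stored triglyceride, was at 137, 119 and 202 CPM in GF LKO and 420.4, 436 and 449 CPM in SPF LKO (log2 fold change -1.51, SE 0.17, edgeR adjusted p = 0.000718). Ces1f, its neighbour on chromosome 8, was at 190.3, 186 and 259 CPM in GF LKO and 411, 358 and 426 CPM in SPF LKO (log2 fold change -0.91, SE 0.14, edgeR adjusted p = 0.00878). Among tested family members, 2 of 6 Ces1, 1 of 6 Ces2, 1 of 6 Ugt1a, 1 of 8 Ugt2 and 1 of 6 Akr1c genes fell and 0 rose. Of all genes 0.461% fell and 0.521% rose. The families were taken because they hold genes named here, so their counts are not independent of the calls. The Akr1c gene was Akr1c19, at 35.7, 30.2 and 33.4 CPM in GF LKO and 96.4, 58.1 and 85.7 CPM in SPF LKO (log2 fold change -1.27, SE 0.16, edgeR adjusted p = 0.00245). The abundant Ces1c, a plasma esterase, was at 1799, 1752 and 1982 CPM in GF LKO and 1811, 1762 and 1786 CPM in SPF LKO, with overlapping libraries.

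Sult1e1, which inactivates estrogens by sulfation, was the largest increase once genes of low level were set aside (mean log2 CPM under 1 in the LKO libraries). It was at 93.02, 118 and 82.7 CPM in GF LKO livers and at 1.46, 1.33 and 4.66 CPM in SPF LKO livers (log2 fold change 5.30, SE 0.47, edgeR adjusted p = 8.81e-05; 95% interval 4.29 to 6.31). In WT livers it was low in either status, at 1.13, 4.08 and 1.25 CPM in GF and 0.586, 0.0467 and 0.104 CPM in SPF, with an edgeR adjusted p of 0.0541 for a log2 fold change of 3.21. The difference of the 2 effects, 2.10 with a 95% interval of -0.60 to 4.79, did not pass (edgeR adjusted p = 0.999). Of the other sulfotransferases tested, Sult1a1, which sulfates phenols, rose from 117, 139.8 and 114 CPM in SPF LKO to 213, 257 and 208 CPM in GF LKO (log2 fold change 0.87, SE 0.14, edgeR adjusted p = 0.0094).

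Sult1e1 belonged to the list of liver genes that are expressed more in female mice, together with the steroid and fatty acid hydroxylases Cyp2c40 and Cyp2c69. Cyp2c40 was at 4.17, 39.2 and 26.3 CPM in GF LKO and 1.01, 0.458 and 0.735 CPM in SPF LKO (log2 fold change 4.99, SE 0.79, edgeR adjusted p = 0.00972). Cyp2c69 was at 1.16, 18.1 and 8.58 CPM in GF LKO and 0.604, 0.412 and 0.392 CPM in SPF LKO (log2 fold change 4.29, SE 0.83, edgeR adjusted p = 0.0308). GF replicate 1 held far less of both than the other GF libraries, and since Cyp2c40 and Cyp2c69 are near copies their counts are partly exchangeable. The call of Cyp2c40 was kept in 4 and that of Cyp2c69 in 1 of the 6 fits that left out an LKO library. Of 16 tested female-biased genes, 3 rose and 0 fell (0.521% and 0.461% of all genes), with 1 to 3 higher when any 1 LKO library was left out. Of 30 tested male-biased genes, 1 rose, Susd4, a regulator of complement, from 15.6, 9.07 and 18.03 CPM in SPF LKO to 37.99, 36.9 and 43.5 CPM in GF LKO (log2 fold change 1.47, SE 0.23, edgeR adjusted p = 0.00878). Abundant Cyp2c genes such as Cyp2c29 (3915, 3961 and 4223 CPM in GF LKO, 4849, 4253 and 6022 CPM in SPF LKO, edgeR adjusted p = 0.3) and Cyp2c70 (edgeR adjusted p = 0.768) did not pass.

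The metallothioneins, small proteins that bind zinc and copper and are induced by metals and glucocorticoids, rose together. Mt1 was at 68.1, 287 and 49.8 CPM in GF LKO livers and 8.30, 16.8 and 8.53 CPM in SPF LKO livers (log2 fold change 3.58, SE 0.62, edgeR adjusted p = 0.0173). Mt2 was at 1.21, 10.1 and 0.632 CPM in GF LKO and 0, 0.183 and 0.196 CPM in SPF LKO (log2 fold change 4.88, SE 1.05, edgeR adjusted p = 0.0439). GF replicate 2 stood above the other GF libraries in both genes, and edgeR called Mt1 in 3 and Mt2 in 2 of the 6 fits that left out 1 LKO library. Of 23 tested glucocorticoid-responsive genes these were the 2 that rose and 0 fell (0.521% and 0.461% of all genes). All GF libraries lay above all SPF libraries in 12 (10.8% of all genes) and below in 2 (10.6%). The median log2 fold change was 0.62, beside -0.0015 over all genes.

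Other members of that list had values on the same side without passing. Tat, tyrosine aminotransferase, was at 1783, 3761 and 3842 CPM in GF LKO and 1121, 1454 and 1574 CPM in SPF LKO (edgeR adjusted p = 0.0552). Ddit4, an inhibitor of mTORC1, was at 39.9, 106 and 90.3 CPM in GF LKO and 17.6, 22.2 and 23.8 CPM in SPF LKO (edgeR adjusted p = 0.19). GF replicate 1 was the lowest GF library in both, as it was for Cdkn1a (102, 196 and 165 CPM in GF LKO), and without it edgeR called 5 members higher. With SPF replicate 1, 2 or 3 left out it called 0. Fkbp5 (log2 fold change 0.36) and Dusp1 (0.42), which glucocorticoids also induce, had overlapping libraries.

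Transcripts of cholesterol synthesis and uptake formed the list with the highest median, 0.98. Of 27 tested members, 2 rose and 0 fell (0.521% and 0.461% of all genes). All 3 GF libraries lay above all 3 SPF libraries in 20 (10.8% of all genes), and 23 had an unadjusted p under 0.05 (14.2% of all genes). Dhcr7, which makes cholesterol from 7-dehydrocholesterol, was at 115, 110.3 and 95.7 CPM in GF LKO and 65.4, 33.4 and 41.4 CPM in SPF LKO (log2 fold change 1.19, SE 0.25, edgeR adjusted p = 0.0388). Ebp, the sterol isomerase, was at 283, 241 and 281 CPM in GF LKO and 183, 154 and 172 CPM in SPF LKO (log2 fold change 0.66, SE 0.12, edgeR adjusted p = 0.019). In both the groups were apart, and the SPF level varied more between mice in Dhcr7. The call of Ebp was kept in 3 and that of Dhcr7 in 1 of the 6 fits that left out an LKO library.

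An enzyme further upstream had a fold of similar size with a wider error. Sqle, squalene epoxidase, was at 142, 130.2 and 107 CPM in GF LKO and 84.5, 24.6 and 39.9 CPM in SPF LKO (log2 fold change 1.35, SE 0.39, edgeR adjusted p = 0.123). SPF replicate 1 had the highest SPF level in Dhcr7 and Sqle alike. The count of members called varied with the libraries: edgeR called 11 higher without that library, 0 or 1 with another LKO library left out, 7 without SPF WT replicate 1 and 6 without SPF WT replicate 3, and DESeq2 on all 12 libraries called 10. In WT 12 members rose and 0 fell. Srebf2, the sterol-sensing activator of the pathway, had a log2 fold change of 0.75 (edgeR adjusted p = 0.0612), and Abca1, a cholesterol exporter that sterols induce, one of -0.20 with overlapping libraries.

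**Figure D2:**
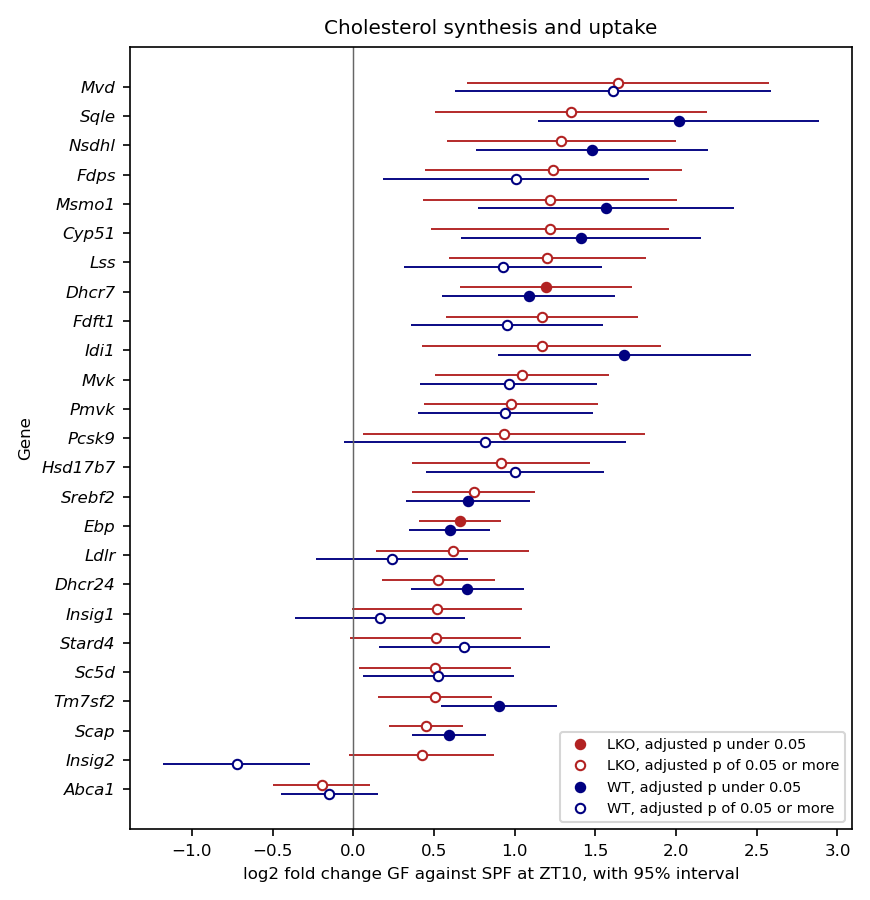
Log2 fold change of GF against SPF at ZT10 with its 95% interval (horizontal axis) for 25 of the 27 tested genes of cholesterol synthesis and uptake, in LKO (red) and WT (blue), where filled circles have an edgeR adjusted p under 0.05. Ebp and Dhcr7 are the filled LKO circles, and 24 of the 25 LKO values drawn are above 0.

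Of 24 tested members of the iron and heme list, 1 fell, Slc40a1, and 0 rose (0.461% and 0.521% of all genes), and 11 had a positive log2 fold change. Slc40a1, ferroportin, the only known exporter of iron from cells, was at 127, 87.7 and 109 CPM in GF LKO and 187, 206 and 219 CPM in SPF LKO (log2 fold change -0.92, SE 0.13, edgeR adjusted p = 0.00544). Outside the list, Slc25a37, mitoferrin-1, which carries iron into mitochondria, was at 15.5, 18.4 and 15.5 CPM in GF LKO and 31.6, 40.98 and 33.7 CPM in SPF LKO (log2 fold change -1.11, SE 0.13, edgeR adjusted p = 0.0011). Blvrb, a biliverdin reductase of heme breakdown, also fell (log2 fold change -0.81, edgeR adjusted p = 0.0361), a gene picked after its values were seen. Its call was kept in 1 of the 6 fits that left out an LKO library. In the list, the transferrin receptor Tfrc had a log2 fold change of -0.56 (edgeR adjusted p = 0.222).

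Slc40a1 is also abundant in Kupffer cells, the resident macrophages of the liver, and in bulk tissue fewer cells of a type and less RNA per cell cannot be told apart. The summed level of 12 Kupffer cell markers was 371 to 438 CPM in GF LKO and 482 to 611 CPM in SPF LKO, and these ranges did not overlap. Without Slc40a1 the other 11 summed to 262 to 311 CPM in GF LKO and 276 to 392 CPM in SPF LKO, so those groups overlapped. Clec4f, the most specific of them, was at 60.9 to 71.5 CPM in GF LKO and 62.97 to 88.3 CPM in SPF LKO, and Slc40a1 was the 1 marker of 12 called. Of the 12 markers 11 had a log2 fold change below 0 and 1 above, with a median of -0.18, and 1 had an unadjusted edgeR p under 0.05. Hepatocyte markers summed to 78370 to 85720 CPM in GF LKO and 76690 to 87840 CPM in SPF LKO, with 0 of 7 called by edgeR. Single members moved both ways: 4 had all GF libraries above all SPF libraries (10.8% of all genes) and 1 below (10.6%). Of the 7, 5 had an unadjusted edgeR p under 0.05 (14.2% of all genes), and DESeq2 called 3 higher and 1 lower. Markers of stellate cells (8 tested), cholangiocytes (5), erythroid cells (5), T and NK cells (4), neutrophils (2) and pancreatic acinar cells (2) had 0 calls. Of all genes only 0.982% were called, so 0 calls in lists this short cannot show that a cell type was unchanged. In the same order, 7, 4, 0, 1, 0 and 1 members had a log2 fold change above 0 and 1, 1, 5, 3, 2 and 1 below. The summed levels of each of these lists overlapped between GF LKO and SPF LKO.

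Immunoglobulin transcripts changed in opposite directions by isotype. Igha, the heavy chain of IgA, which gut bacteria induce, was at 0.201, 0 and 0 CPM in GF LKO and 1.51, 2.01 and 2.01 CPM in SPF LKO (log2 fold change -4.63, SE 0.64, edgeR adjusted p = 0.00468). With GF libraries at 0 the size of that fold depends on the prior count. Ighm, the heavy chain of IgM, was at 10.2, 14.3 and 13.8 CPM in GF LKO and 5.03, 3.85 and 4.36 CPM in SPF LKO (log2 fold change 1.53, SE 0.32, edgeR adjusted p = 0.0388), a call kept in 1 of the 6 fits that left out an LKO library. The 10 markers of B and plasma cells summed to 20.3 to 27.4 CPM in GF LKO and 12.1 to 16.2 CPM in SPF LKO, without overlap, and Ighm and Igha were the 2 called of 7 tested. Igkc, the kappa light chain, was at 5.18, 7.83 and 6.90 CPM in GF LKO and 1.91, 1.79 and 4.75 CPM in SPF LKO (edgeR adjusted p = 0.17), and the B cell marker Ms4a1 at 0.151, 0.358 and 0.316 CPM in GF LKO and 0.503, 0.412 and 0.490 CPM in SPF LKO. The part of these markers in the immunoglobulin changes was not tested.

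Among 29 tested acute phase genes, 2 rose and 1 fell (0.521% and 0.461% of all genes). The log2 fold change was above 0 in 26 and below in 3, with a median of 0.39 beside -0.0015 over all genes. An unadjusted edgeR p under 0.05 was found for 12 (14.2% of all genes). Serpina3n, a protease inhibitor, was at 323, 602 and 435 CPM in GF LKO and 239, 239 and 258 CPM in SPF LKO (log2 fold change 0.89, SE 0.20, edgeR adjusted p = 0.0475). Il6ra, the receptor for interleukin 6, was at 61.1, 151 and 118 CPM in GF LKO and 39.04, 51.2 and 46.9 CPM in SPF LKO (log2 fold change 1.26, SE 0.26, edgeR adjusted p = 0.0387). Saa3, a serum amyloid A made by macrophages and other cells, went the other way, at 0.603, 0.972 and 0.632 CPM in GF LKO and 2.36, 2.43 and 2.99 CPM in SPF LKO (log2 fold change -1.81, SE 0.33, edgeR adjusted p = 0.0209). GF replicate 1 was again the lowest GF library for Serpina3n and Il6ra. Without it edgeR called 2 members higher and 0 lower, and with any other LKO library left out 0 higher.

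No member of the lists of interferon-stimulated genes (46 tested), antigen processing (25) or Toll-like receptor sensing (25) passed. Their median log2 fold changes were -0.14, -0.19 and 0.11, and 6, 3 and 4 members had an unadjusted edgeR p under 0.05 (14.2% of all genes), while DESeq2 called 0, 0 and 2. Tlr5, the receptor for bacterial flagellin, was at 2.21, 2.76 and 2.47 CPM in GF LKO and 5.23, 5.95 and 5.10 CPM in SPF LKO (log2 fold change -1.13, SE 0.26, edgeR adjusted p = 0.0554), so its libraries were apart while its adjusted p was just over the threshold. Gbp2b, a guanylate-binding protein outside these lists, did fall, from 4.02, 3.57 and 4.46 CPM in SPF LKO to 0.955, 0.614 and 0.790 CPM in GF LKO (log2 fold change -2.34, SE 0.52, edgeR adjusted p = 0.0475), though with any 1 LKO library left out it was not called.

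Of 24 tested genes of methionine, one-carbon and sulfur metabolism, 3 rose and 0 fell (0.521% and 0.461% of all genes). An unadjusted edgeR p under 0.05 was found for 14 (14.2% of all genes). All GF libraries lay above all SPF libraries in 9 (10.8% of all genes) and below in 2 (10.6%). Dmgdh, dimethylglycine dehydrogenase, was at 1174, 1134 and 1077 CPM in GF LKO and 717, 625 and 761 CPM in SPF LKO (log2 fold change 0.69, SE 0.11, edgeR adjusted p = 0.0103), and its call was lost in 1 of the 6 reduced fits. Mat1a, which makes S-adenosylmethionine, was at 4263, 5881 and 4915 CPM in GF LKO and 2794, 3116 and 3762 CPM in SPF LKO (log2 fold change 0.64, SE 0.14, edgeR adjusted p = 0.0475). Bhmt2, a methyltransferase that remakes methionine, had a log2 fold change of 0.46 (edgeR adjusted p = 0.0373). The call of Mat1a was kept in 1 and that of Bhmt2 in 0 of the 6 reduced fits. Bhmt, which uses betaine, had a log2 fold change of 0.88 and did not pass (edgeR adjusted p = 0.0554). Without SPF replicate 2 edgeR called 0 genes of the list, and without GF replicate 1 it called 2 higher and 1 lower. Dmgdh was also the 1 of 37 tested genes of amino acid and urea metabolism called higher, with 0 called lower. In that list 15 genes had all GF libraries above all SPF libraries (10.8% of all genes) and 2 below (10.6%). An unadjusted edgeR p under 0.05 was found for 13 of the 37 (14.2% of all genes), and DESeq2 called 6 higher and 0 lower.

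**Figure D3:**
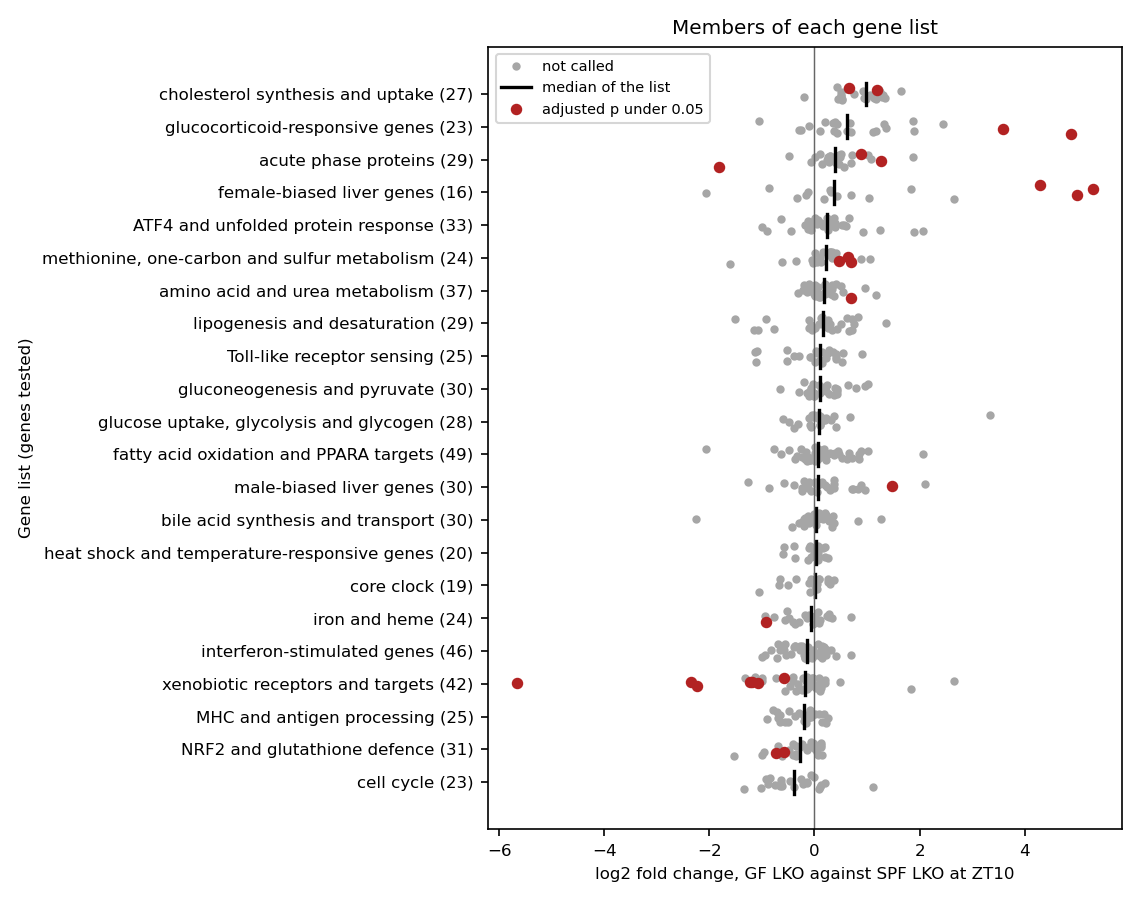
Each point is the log2 fold change of GF LKO against SPF LKO at ZT10 (horizontal axis) of 1 tested member of a gene list, with the number tested in parentheses, calls at an adjusted p under 0.05 in red and the list median as a black bar. Calls lie to the left in the xenobiotic, NRF2 and iron lists and to the right in the cholesterol, glucocorticoid, female-biased and methionine lists.

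The lists of gluconeogenesis and pyruvate (30 tested), glycolysis and glycogen (28), lipogenesis (29), fatty acid oxidation and PPARA targets (49) and bile acids (30) each had 0 genes past the threshold in either direction, with 9, 2, 12, 11 and 7 members at an unadjusted p under 0.05 (14.2% of all genes). DESeq2 on the 12 libraries called 4, 2, 7, 7 and 1 of them, and edgeR without GF replicate 1 called 4 gluconeogenic genes higher. Pck1, the entry enzyme of gluconeogenesis, was at 3256, 4714 and 4559.5 CPM in GF LKO and 2197, 2072 and 2932 CPM in SPF LKO (log2 fold change 0.80, 95% interval 0.36 to 1.24, edgeR adjusted p = 0.0814). Cpt1a, which admits fatty acids to mitochondria, was at 578, 439.8 and 591 CPM in GF LKO and 331, 319 and 378 CPM in SPF LKO (log2 fold change 0.65, 95% interval 0.32 to 0.98, edgeR adjusted p = 0.0612). For both genes the GF and SPF libraries did not overlap, and the interval lay above 0 while the adjusted p missed the threshold.

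Genes of bile acid synthesis did not pass either. Cyp7a1, its rate-limiting enzyme, was at 199.9, 250.3 and 293 CPM in GF LKO and 191, 149 and 77.9 CPM in SPF LKO (edgeR adjusted p = 0.185). Cyp8b1, which sets the share of cholic acid, was at 351, 377 and 421 CPM in GF LKO and 203, 101 and 172 CPM in SPF LKO (edgeR adjusted p = 0.106). GF libraries lay above SPF libraries in both. Fasn (log2 fold change 0.17), Scd1 (-0.11), Ppara (0.26), G6pc (0.43) and Pck2 (-0.65) had edgeR adjusted p-values of 0.9, 0.937, 0.746, 0.602 and 0.191. Fgf21, a fasting hormone, was at 3.82, 0.767 and 2.58 CPM in GF LKO and 0.453, 0.412 and 0.833 CPM in SPF LKO (edgeR adjusted p = 0.159), and 1 GF library lay among the SPF libraries.

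Of 19 tested clock genes 0 were called by edgeR, 2 by DESeq2, and 4 had an unadjusted edgeR p under 0.05 (14.2% of all genes). Nr1d1 (REV-ERBα) was at 5.48, 3.73 and 4.74 CPM in GF LKO and 4.53, 5.63 and 3.04 CPM in SPF LKO, and Dbp, a clock output factor, at 6.68, 5.63 and 4.42 and 9.61, 8.33 and 5.73 CPM. Dbp was far higher in WT at this hour, at 55.4, 98.2 and 86.7 CPM in GF WT and 25.95, 53.7 and 68.6 CPM in SPF WT. Per3 (log2 fold change -1.05, edgeR adjusted p = 0.0569) and Nr1d2 (-0.66, edgeR adjusted p = 0.0747) were closest to the threshold. In the lists of ATF4 and the unfolded protein response (33), heat shock (20) and the cell cycle (23), 0 members passed and the medians were 0.25, 0.02 and -0.39, with 6, 1 and 5 members at an unadjusted edgeR p under 0.05 (14.2% of all genes) and 1, 0 and 0 called by DESeq2.

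Most calls, 109 of 132, were in no pathway list. Cav1, the coat protein of caveolae, rose from 8.40, 5.59 and 5.34 CPM in SPF LKO to 21.2, 22.8 and 25.8 CPM in GF LKO (log2 fold change 1.85, SE 0.22, edgeR adjusted p = 0.0011). Jaml, a junctional adhesion molecule, rose from 0.453, 0.778 and 0.833 CPM to 1.96, 4.96 and 3.63 CPM (log2 fold change 2.34, SE 0.37, edgeR adjusted p = 0.00978), and Sorbs3, the adhesion adaptor vinexin, from 14.8, 18.4 and 20.2 CPM to 32.3, 51.2 and 36.3 CPM (log2 fold change 1.16, SE 0.18, edgeR adjusted p = 0.00878). Nipal1, a magnesium transporter, rose from 1.31, 1.01 and 0.882 CPM to 4.52, 5.53 and 4.53 CPM (log2 fold change 2.18, SE 0.36, edgeR adjusted p = 0.0129). In each of these the GF libraries were all higher, and in Jaml GF replicate 1 was nearest to the SPF libraries. Cav1 is abundant in endothelial cells. Their 8 markers summed to 206 to 211 CPM in GF LKO and 183 to 202 CPM in SPF LKO without overlap and with 0 called. Single markers went both ways, with 3 log2 fold changes above 0, 5 below and a median of -0.038. The part of endothelial cells in the rise of Cav1 was not tested.

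Srrm4, a regulator of neuronal splicing, and Serpinb6b, an intracellular protease inhibitor, rose with log2 fold changes of 1.08 and 0.93 (edgeR adjusted p = 0.00803 and 0.00724). Ntrk2, the receptor for brain-derived neurotrophic factor, fell from 71.5, 67.1 and 115 CPM in SPF LKO to 26.8, 16.7 and 5.11 CPM in GF LKO (log2 fold change -2.38, SE 0.43, edgeR adjusted p = 0.0201). It was nearly silent in WT livers, at 0.375, 0.386 and 0.907 CPM in GF and 0.469, 1.54 and 1.88 CPM in SPF. Tiam2, an activator of Rac, fell from 12.5, 10.9 and 13.1 CPM in SPF LKO to 5.88, 4.19 and 3.58 CPM in GF LKO (log2 fold change -1.42, SE 0.20, edgeR adjusted p = 0.00544), and Dpy19l3, a C-mannosyltransferase, from 8.25, 7.46 and 5.73 to 2.97, 1.89 and 2.37 CPM (log2 fold change -1.57, SE 0.23, edgeR adjusted p = 0.00674). Gdap10, a transcript of low level, fell from 1.81, 2.79 and 1.42 to 0.302, 0.409 and 0.263 CPM (log2 fold change -2.61, SE 0.40, edgeR adjusted p = 0.00878). Mme, neprilysin, fell from 10.97, 5.08 and 7.84 to 2.81, 2.30 and 2.05 CPM (log2 fold change -1.73, SE 0.30, edgeR adjusted p = 0.0177), a call kept in 2 of the 6 reduced fits.

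Whether the response to microbes depended on the liver clock was asked by the difference of the LKO and WT effects at ZT10. In WT 388 genes (2.89%) differed between GF and SPF, 202 higher (1.5%) and 186 lower (1.38%) in GF. Of the 132 genes called in LKO, 49 were called in WT in the same direction, which is 37.1% of the LKO calls and 12.6% of the WT calls, 0 in the opposite direction, and 129 had the same sign. The difference itself passed for 1 gene (0.00744%), Cyp3a11 (difference of log2 fold changes -2.39, SE 0.23, 95% interval -2.89 to -1.90, edgeR adjusted p = 0.000747). At an unadjusted p under 0.05 the difference had 691 genes (5.14%), and DESeq2 called 23.

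The genes next in order missed the threshold. Ugt1a9 had a log2 fold change of -2.34 in LKO and -0.39 in WT, where it was at 18.99, 21.2 and 20.02 CPM in GF and 25.3, 32.5 and 21 CPM in SPF (difference -1.95, 95% interval -2.63 to -1.27, edgeR adjusted p = 0.0813). Gys2, liver glycogen synthase, had -0.05 in LKO and 0.87 in WT (edgeR adjusted p of the difference = 0.0813). Ppp1r9a, a scaffold of protein phosphatase 1, had 0.35 in LKO and -0.80 in WT (edgeR adjusted p of the difference = 0.0511), and Sema5b, a semaphorin, 1.16 and -1.81 (edgeR adjusted p of the difference = 0.13). Cyp2a5, called in LKO at -1.23, had 0.28 in WT, and that difference had an edgeR adjusted p of 0.228.

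**Figure D4:**
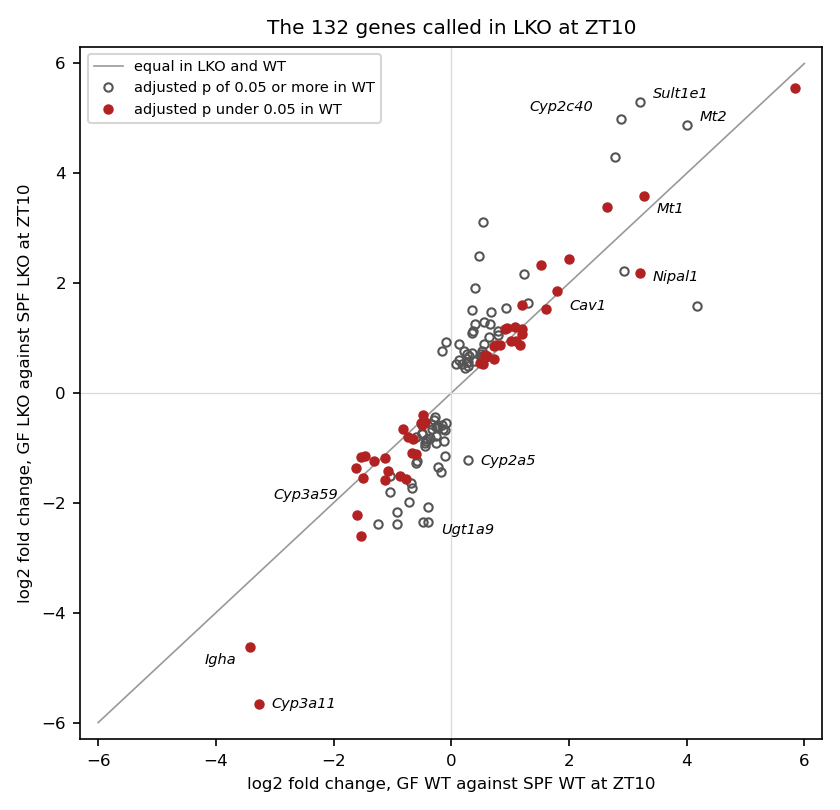
The 132 genes called in LKO at ZT10, with the log2 fold change of GF against SPF in WT on the horizontal axis and in LKO on the vertical axis, the grey line where both are equal, and filled circles for the genes also called in WT. Cyp3a11 lies below the line at -3.26 in WT and -5.66 in LKO, and 129 of the 132 genes have the same sign in both.

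The other 5 times gave a check in 30 further LKO mice, in which 5769 of 14124 genes (40.8%) differed between GF and SPF averaged over the times, with 20% higher and 20.8% lower in GF. Without the 2 libraries that went against their label the count was 5501 of 14394. Of the 132 genes called at ZT10, 131 could be tested there, 130 had the same sign and 107 were called in the same direction, 81.1% of the ZT10 calls and 1.85% of the calls at the other times, with 0 called in the opposite direction. Without the 2 libraries, 131 had the same sign and 108 were called. Cyp3a11 had log2 fold changes of -4.51 at ZT2, -5.14 at ZT6, -5.04 at ZT14, -4.92 at ZT18 and -5.01 at ZT22, all smaller in size than at ZT10. Averaged over the other 5 times it had -4.92, or -4.92 without the 2 libraries, and Sult1e1 had 4.24, or 4.03 without them.

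The interaction with time found no gene whose GF effect at ZT10 differed from the mean of the other times, with 0 of 14234 genes called by edgeR or by DESeq2 and 1445 (10.2%) at an unadjusted edgeR p under 0.05. Without the 2 libraries edgeR called 0 of 14486, with 1530 at an unadjusted p under 0.05. For Cyp3a11 the ZT10 effect minus the mean of the other times was -0.73 (95% interval -1.29 to -0.17, edgeR adjusted p = 0.385). The 21 stable genes were chosen at ZT10, and the estimate over the other times was smaller in size for all of them except Ces1d and Igha, or except Igha alone without the 2 libraries. The acute phase receptor Il6ra had 0.39 over the other times (edgeR adjusted p = 0.0575) beside 1.26 at ZT10. Without the 2 libraries Il6ra had 0.56 over the other times and was called (edgeR adjusted p = 0.00266). Averages over the other times leaned on the 2 libraries for genes such as Akr1c19, with -0.64 with them and -0.39 without. Ces1d had -1.66 and -1.12, and Cyp2a5 had -1.12 and -0.45.

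**Figure D5:**
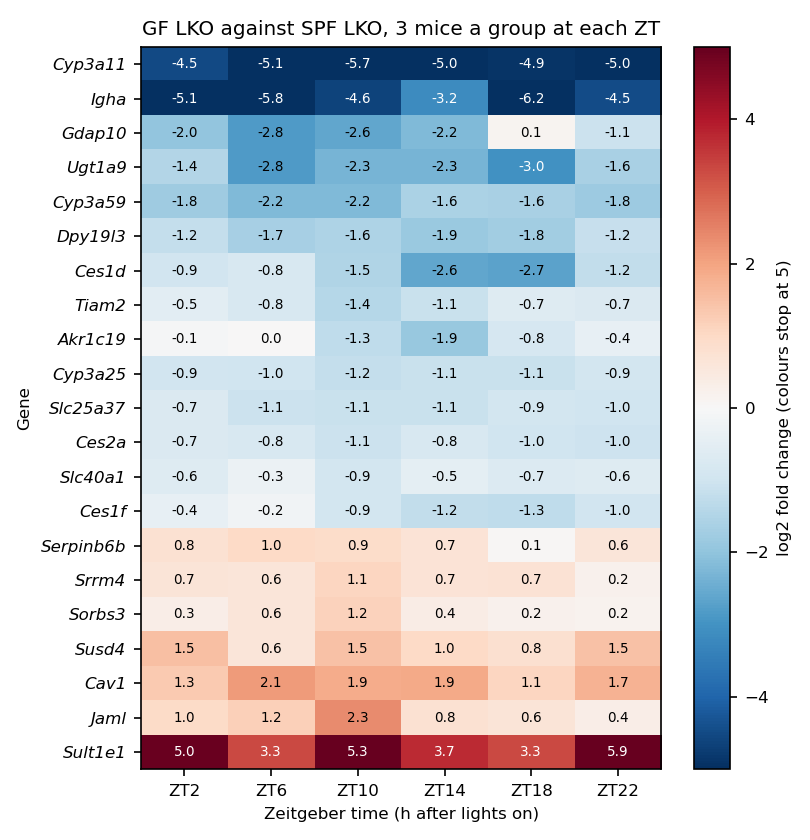
Log2 fold change of GF LKO against SPF LKO at each of 6 zeitgeber times (columns, 3 mice a group at each) for the 21 genes that remained called at ZT10 with any 1 LKO library left out (rows), blue where GF is lower and red where it is higher. Cyp3a11 stays between -4.51 and -5.65 and Sult1e1 between 3.28 and 5.94, with the SPF groups of ZT14 and ZT18 holding the 2 libraries that went against their label.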

How the data were processed

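Livers of male mice were dissected, frozen and extracted with TRIzol, and libraries were made with a stranded mRNA kit and sequenced as single-end reads of 50 bases, with all 72 libraries on 6 lanes. The authors deposited raw counts, 1 value per gene and library, with no normalization. Per the file headers and labels, the authors aligned reads with STAR 2.6.1b to GRCm38 (mm10) and counted them with featureCounts 2.0.0 over exons of Ensembl release 97, without the strand and without reads that matched several places or genes. Antisense, overlapping and near-identical genes may therefore be miscounted. Gene names and coordinates came from GENCODE vM21, which named 55480 of 55573 genes, and promoters from RefSeq.

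Groups were taken from the labels. Nothing in the labels says that replicates differ in cage or isolator, so p-values measure the spread between these mice. After TMM scaling and the filterByExpr step, which drops genes of low count, the quasi-likelihood test of edgeR 4.0.16 in R 4.3.3 was fitted to the 12 libraries of ZT10 with 4 group means, the 30 LKO libraries of the other times and all 36 LKO libraries. P-values were adjusted by Benjamini-Hochberg at 0.05 over the genes of each fit. DESeq2 1.42.0, the tool of the study, was the other count test. The tests were run on simulated data first.

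Genes were named by rule: the 15 largest increases and 15 largest decreases among calls whose mean log2 CPM reached 1, the 4 members with the smallest p of each of 22 pathway lists, 16 set genes, and the 5 smallest p of each difference. Another 10 lists held cell type markers. The members and lists were chosen with earlier results of these data known. The 21 genes that remained called, 9 of them outside the rule, and the gene families were chosen after values were seen. Figures were drawn with matplotlib 3.10.9 in Python 3.11.15 (pandas 2.3.3, numpy 2.4.6). A few items are not reported here. Alternatives were other scalings, no filter, a replicate block, DESeq2, a fold threshold and leaving out libraries. A DESeq2 fit of the 6 libraries and a test against a fold of 1.2 were added after seeing the data.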

Additional observations from a re-analysis of the deposited data

Results flagged for a closer look

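One result was singled out because the effect of microbial status differed between the genotypes. The log2 fold change of Cyp3a11 in GF against SPF livers at ZT10 was -5.66 in LKO and -3.26 in WT, a difference of -2.39 (edgeR quasi-likelihood test, adjusted p = 0.000747). All 3 GF LKO libraries were below all 3 GF WT libraries, and all GF libraries were below all SPF libraries in both genotypes. Groups of 3 were too small for a test of single outlying libraries.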

How the results depend on the processing

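With 3 mice a group, the count of calls moved with the test and with single libraries, and the calls near the threshold are the least certain. Against 132 genes in LKO at ZT10, a log2 fold change of at least 1 left 69, DESeq2 called 417 and no filter on low counts 851 (129 of them shared), where the fit shrank the spread of each gene fully to the trend. Leaving out 1 library of ZT10 gave 31 to 185 genes. DESeq2 on the 6 libraries alone gave 535 and the test against a fold of 1.2 gave 44, both added after seeing the data. In WT, against 388, the counts were 170 with the fold threshold, 745 with DESeq2, 1136 with no filter, 213 with the 6 WT libraries alone and 91 to 392 with 1 library left out. The difference of LKO and WT, against 1, gave 23 with DESeq2, 2 with RLE scaling, 208 with no filter and 1 to 5 with 1 library left out. The difference of ZT10 from the other times, against 0, gave 326 with no filter and 0 to 1 with 1 library left out. Of genes in the pathway lists, 23 were called, against 68 with DESeq2, 158 with no filter, 9 to 41 with 1 library left out, 99 with DESeq2 on the 6 libraries and 13 with the test against a fold of 1.2. For these counts, unless stated, the cause was not tested. Over 214 genes and 4274 values, 3259 kept direction and side of the threshold, 844 lost the call, 165 gained one and 6 changed sign, all with 1 library left out: log2 fold changes then ran from -0.098 to 0.020 for Gys2, -0.13 to 0.30 for Nr1d1, -0.26 to 0.071 for Scd1, -0.16 to 0.0061 for Arntl and -0.038 to 0.32 for Fasn, with 0 of the 5 genes called.

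No clear pairing of mice by replicate number was seen. Deviations of same-numbered GF LKO and SPF LKO libraries correlated at 0.149, 0.040 and -0.0088, values that cannot exclude a pairing. With the replicate number as a block, 97 genes were called in LKO (79 shared with the 132), 271 in WT, 1 for the difference, 5640 at the other times and 0 for the difference of ZT10 from them.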

Other observations

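Among called genes in no pathway list, 4 enzymes picked after their values were seen were lower in GF LKO livers. Gda, guanine deaminase, was at 9.20, 11.7 and 10.9 CPM in GF LKO and 18.3, 22.3 and 21.5 CPM in SPF LKO (log2 fold change -0.96, SE 0.17, edgeR adjusted p = 0.0173). Nampt, the rate-limiting enzyme of NAD salvage, was at 58.7, 56.02 and 66.02 CPM in GF LKO and 94.2, 90.5 and 88.7 CPM in SPF LKO (log2 fold change -0.60, SE 0.11, edgeR adjusted p = 0.0256). Nmrk1, a nicotinamide riboside kinase, and Tk1, thymidine kinase, had log2 fold changes of -0.88 and -0.84 (edgeR adjusted p = 0.0388 and 0.00884). In each the GF libraries lay below the SPF libraries. With 1 LKO library left out, the calls of Gda, Nampt, Nmrk1 and Tk1 were kept in 3, 1, 2 and 5 of the 6 fits. Over the other times, without the 2 libraries that went against their label, Gda, Nampt and Nmrk1 were called lower. Tk1 had -0.07 there (edgeR adjusted p = 0.454).

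Other called genes in no pathway list went either way. Serpinf2, the inhibitor of plasmin, was at 1014, 1182 and 1152 CPM in GF LKO and 705, 610.5 and 779 CPM in SPF LKO (log2 fold change 0.68, SE 0.13, edgeR adjusted p = 0.0323). Tnfrsf1b, a receptor for tumor necrosis factor, and Ackr2, a decoy receptor for chemokines, had log2 fold changes of 1.06 and 1.61 (edgeR adjusted p = 0.0371 and 0.015). The complement genes C4a and Cfhr3, whose reads may be shared with near copies, were called lower (-1.54 and -0.62, edgeR adjusted p = 0.0389 and 0.039), and Aldoc, a glycolytic aldolase, higher (1.17, edgeR adjusted p = 0.0209). With 1 LKO library left out, the calls of Serpinf2, Tnfrsf1b, Ackr2 and Aldoc were kept in 1, 1, 2 and 3 of the 6 fits, and those of C4a and Cfhr3 in 0. Over the other times, without the 2 libraries that went against their label, Tnfrsf1b had 0.19 (edgeR adjusted p = 0.213). Serpinf2, Ackr2, C4a, Cfhr3 and Aldoc were called there in the same direction. Serpinf2, Tnfrsf1b, Cfhr3 and Aldoc were picked after their values were seen.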
